A study of Mus musculus with 6 samples.

Results

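miR-23a, miR-27a, miR-23b, miR-27b and miR-24 are the guide strands of a pair of paralogous microRNA (miRNA) clusters, and their levels were compared in mouse CD8+ T cells primed by different antigen-presenting cells. The members were the mouse-named assays for these miRNAs (mmu-miR-23a, mmu-miR-27a, mmu-miR-23b, mmu-miR-27b and mmu-miR-24), without the assays whose star marks the passenger strand, 5 of 350 miRNA assays in the raw table. The 6 samples were CD8+ T cells with the pMel-1 transgenic T cell receptor, which recognises the melanoma antigen gp100, primed in culture for 3 days. LPS-matured dendritic cells grown from bone marrow primed 3 samples (DC-primed, labelled test), and splenic B cells that carried a human gp100 peptide did so for the other 3 (B cell-primed, labelled control). The 2 groups therefore differ at least in the priming cell and in its LPS treatment, and all 6 share the transgene. The labels used here give no age, and do not say whether the priming cells were removed or whether the 3 rounds came from separate animals. The p-values then measure only the spread between these samples, which may be technical.

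Each cluster is transcribed as a single precursor that yields a miR-23, a miR-27 and a miR-24. In lymphocytes the clusters restrain effector differentiation, and miR-23a is known as a repressor of Prdm1, which encodes BLIMP-1, a transcription factor of cytotoxic T cells. miR-27 family members act on activation and cytokine genes, and miR-24 is studied as a regulator of cell cycle and DNA repair genes.

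The mature sequences bear on which readouts can be told apart. RefSeq (GRCm38.p6) gave a mature sequence for 4 of the 5 members, printed 5′ to 3′ with the seed, bases 2 to 8, in capitals; miR-23b is named only.
miR-23a: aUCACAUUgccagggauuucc
miR-27a: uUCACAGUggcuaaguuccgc
miR-27b: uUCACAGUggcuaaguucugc
miR-24: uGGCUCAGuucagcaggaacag
The miR-27a and miR-27b sequences share their seed and differ at 1 of 21 bases, C19U counted from the 5′ end. The seeds of miR-23a and miR-27a differ at 1 of 7 bases, U7G. Each assay used its own forward primer on poly(A)-tailed RNA, and no source used here gives the primers, so miR-27a and miR-27b may share signal. Without a miR-23b sequence this could not be judged for miR-23a and miR-23b, which may share signal as well.

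The miR-23a guide lies at chr8:84208563-84208583 (plus strand), with miR-27a at chr8:84208727-84208747 in the same cluster of 3 hairpins, which spans 404 bases. The miR-27b guide lies at chr13:63300760-63300780 (plus strand), in a cluster of 3 hairpins spanning 792 bases inside the protein-coding gene Aopep. The identical miR-24 guide is encoded in both, at chr8:84208875-84208896 in Mir24-2 and at chr13:63301251-63301272 in Mir24-1. A miR-24 assay therefore sums both loci. The star strands of the 2 miR-24 hairpins differ, so each sequence belongs to its own locus. Since the primers are not known, the assays for these star strands may share signal too. Capitals mark the bases from the first difference on, after 16 shared bases.
miR-24-1*: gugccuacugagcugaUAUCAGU
miR-24-2*: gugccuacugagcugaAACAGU

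The raw value is the threshold cycle (Ct) of SYBR Green quantitative RT-PCR, where 1 cycle later means about 2-fold less RNA. miR-23a was listed at Ct 19.66, 23.8 and 29.33 in DC-primed samples 1, 2 and 3, and at 20.65, 22.34 and 23.84 in their B cell-primed counterparts. miR-27a was at 20.4, 27.06 and 31.31 after DC priming and at 23.83, 23.59 and 26.72 after B cell priming. miR-23b was at 22.14, 26.36 and 33 against 22.48, 24.28 and 25.39. DC-primed sample 1 had the earliest and DC-primed sample 3 the latest Ct of all 6 samples for each of these miRNAs, so the B cell-primed values lay inside the DC-primed range. miR-27b followed the same order at 22.22, 27.5 and 31.3 against 23.14, 23.84 and 26.15. miR-24 was at 20.04, 25.41 and 27.72 against 22.64, 23.08 and 24.32, with the narrowest DC-primed range of the 5.

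**Figure D1:**
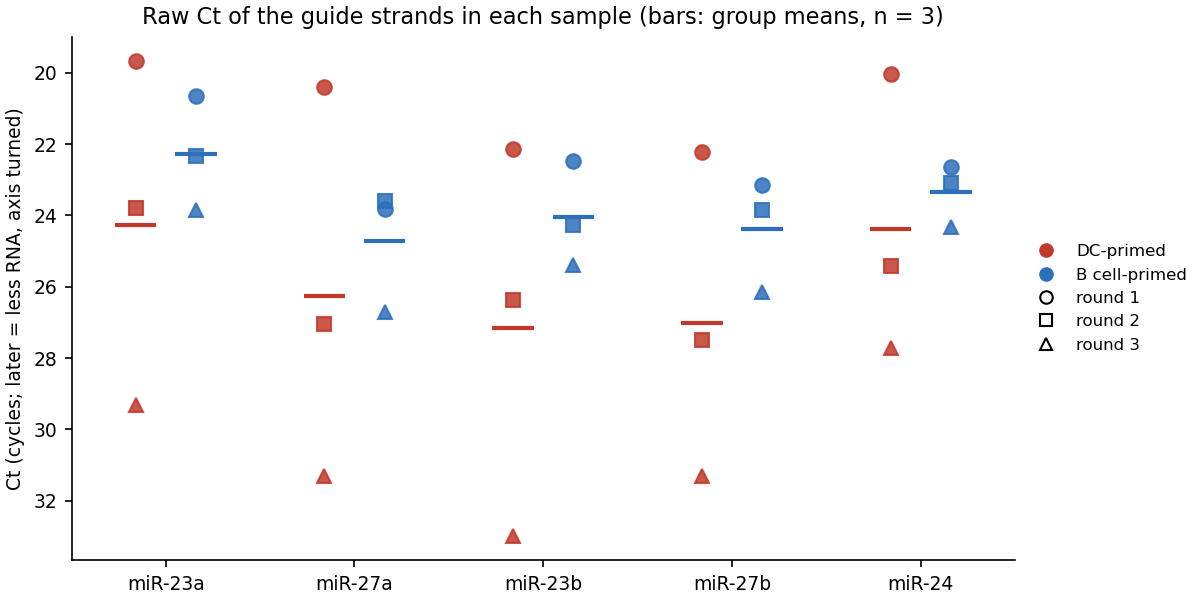
Raw Ct of the 5 guide strands (vertical axis in cycles, turned so that more RNA is higher) in the DC-primed and B cell-primed samples, with the round as the symbol and bars for group means (n = 3 each). For every member DC-primed sample 1 is the highest and DC-primed sample 3 the lowest point, with the 3 B cell-primed samples between them.

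Part of this spread is common to whole samples. The mean Ct of the 274 assays tested ran from 26.3 to 30.5 over the DC-primed samples and from 26.4 to 27.6 over the B cell-primed ones. From 280 to 337 of the 350 assays were below Ct 35 in the former and from 336 to 341 in the latter, with DC-primed sample 3 at the lowest count. Testing was limited to assays with a Ct under 35 in each of the 6 samples, which all 5 members met. The authors subtracted a number per sample, between 26.2 and 30.5 cycles, to give dCt; below, a level is minus dCt on the log2 scale, so that a higher level means more miRNA. After this step miR-27a still spanned -0.85 to 5.78 after DC priming, with an SD of 3.37 against 1.32 after B cell priming (n = 3 each). The median SD of the 274 assays was 1.20 and 0.63 in these groups, and the DC-primed SD of miR-27a was the 4th largest. In bulk RNA, fewer cells of a type and less RNA per cell cannot be told apart.

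The comparison asked how the priming cell relates to the level of these miRNAs, and for miR-23a and miR-23b the answer depended on the deposited table. In the deposited dCt values, miR-23a and miR-23b were lower in DC-primed cells in all 3 rounds, as were 35 of 274 assays (12.8%). In the levels rebuilt from the deposited Ct by the same subtraction, this was so in rounds 2 and 3 only, for both miRNAs. miR-27a, miR-27b and miR-24 have the same values in both tables. No member passed limma's test from either table, where 0 of 274 assays (0%) were called at an adjusted p under 0.05; 24 had an unadjusted p under 0.05 from dCt and 23 from Ct.

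In the deposited dCt, the miR-23a level was 1.52, 3.66 and -0.87 in DC-primed samples 1, 2 and 3 and 5.70, 7.08 and 1.79 in their B cell-primed counterparts. The groups overlapped, since B cell-primed sample 3 lay below DC-primed sample 2. The difference was -3.42 ± 1.52 (limma SE, n = 3 each), with a 95% interval of -6.89 to 0.05 (limma adjusted p = 0.560). With 1 sample left out it stayed negative, at -2.27 without DC-primed sample 3, and at -2.31 and -4.96 when B cell-primed sample 2 or 3 was left out. From Ct, the levels were 6.52, 4.66 and 1.13 after DC priming and 5.70, 4.78 and 3.79 after B cell priming. DC-primed sample 1 was below all 3 B cell-primed samples by dCt and above all 3 by Ct. The difference from Ct was -0.66 ± 1.29, with an interval of -3.60 to 2.29 (adjusted p = 0.986). It was -1.87 without DC-primed sample 1 and 0.83 without DC-primed sample 3.

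For miR-23b, the deposited dCt gave levels of 0.04, 1.10 and 0.46 after DC priming and 3.87, 4.84 and 2.24 after B cell priming. All 3 DC-primed values lay below all 3 B cell-primed values, which held for 22 of 274 assays (8.03%). The difference was -3.12 ± 0.82, with an interval of -4.98 to -1.26 (adjusted p = 0.306). With 1 sample left out it ran from -3.83 to -2.52. From Ct the levels were 4.04, 2.10 and -2.54 against 3.87, 2.84 and 2.24, so the groups overlapped. That difference was -1.79 ± 1.50, with an interval of -5.20 to 1.63 (adjusted p = 0.971). It was -3.21 without DC-primed sample 1 and 0.08 without DC-primed sample 3.

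**Figure D2:**
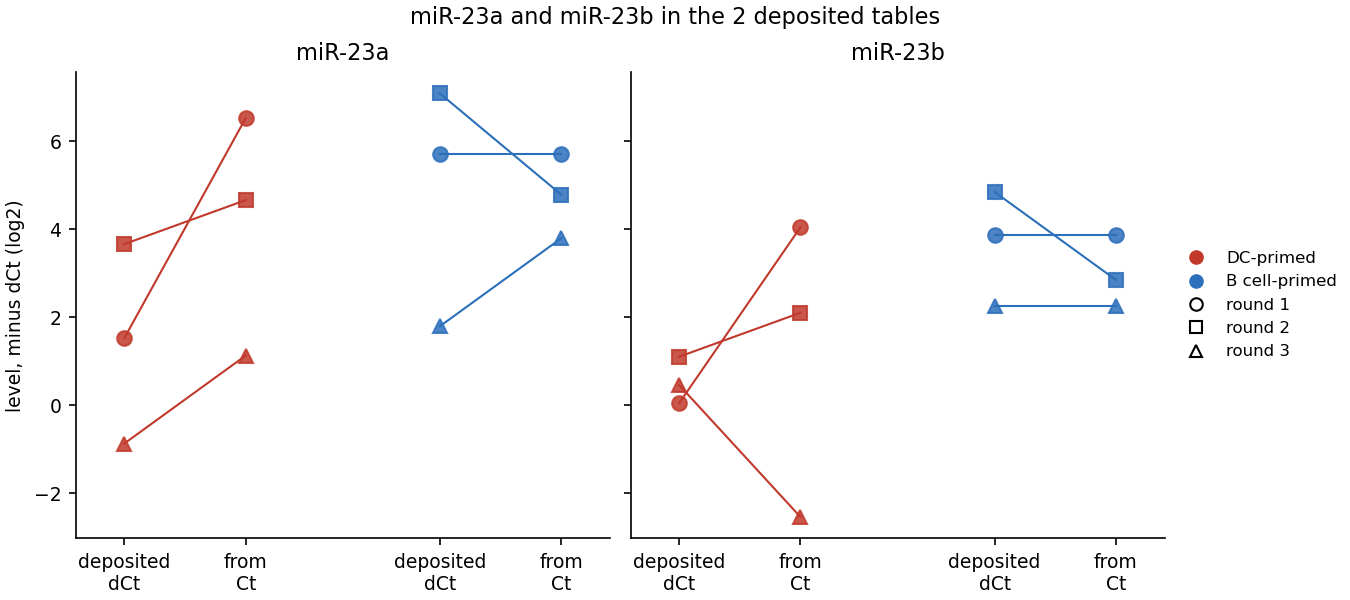
Levels of miR-23a and miR-23b (minus dCt, log2) in each sample from the deposited dCt and from Ct after the same subtraction, joined by a line for each sample. From dCt the DC-primed values of miR-23b all lie below the B cell-primed values; from Ct DC-primed sample 1 is at 4.04, above all 3 of them.

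These were the only assays for which the tables disagreed, in 5 of 6 values of miR-23a and 4 of 6 of miR-23b, 9 of 2060 values compared. Every other value agreed within 0.02 cycles. The gaps were 5, 1 and 2 cycles for miR-23a in DC-primed samples 1, 2 and 3 and 2.3 and 2 cycles in B cell-primed samples 2 and 3. For miR-23b they were 4, 1 and 3 cycles in the DC-primed samples and 2 cycles in B cell-primed sample 2. The dCt of miR-23a in DC-primed sample 1 implies a Ct of 24.66, against 19.66 as listed, and that of miR-23b in DC-primed sample 3 implies 30 against 33. No reason for these gaps is given in the labels or headers. Which table is which was settled by the values: the Ct table is deposited under a name that calls it normalized and with column notes that speak of dCt, while its title line calls it non-normalized.

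The authors' deposited table gives a DC-primed over B cell-primed fold of 0.0932 for miR-23a with a p of 0.0160 from their paired test over rounds, and of 0.115 with a p of 0.0429 for miR-23b. These were 2 of 18 assays under 0.05 among 345 (5.22%). On levels from Ct, the folds computed here were 0.634 for miR-23a and 0.290 for miR-23b. With the round as a block, limma gave adjusted p = 0.0522 for both miRNAs from dCt, and 0.926 for miR-23a and 0.502 for miR-23b from Ct.

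miR-27a, the partner of miR-23a on chromosome 8, had levels of 5.78, 1.40 and -0.85 in DC-primed samples 1, 2 and 3 and 2.52, 3.53 and 0.91 in their B cell-primed counterparts. DC-primed sample 1 was above and DC-primed sample 3 below every B cell-primed sample. The difference was -0.21 ± 1.55, with an interval of -3.74 to 3.31 (limma adjusted p = 0.986), so differences of several-fold in either direction are within the error. By round it was 3.26, -2.13 and -1.76. It was -2.05 without DC-primed sample 1, 1.27 without DC-primed sample 3, 0.14 without DC-primed sample 2 and 0.39 when B cell-primed sample 2 was left out.

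miR-27b, encoded on chromosome 13, was at 3.96, 0.96 and -0.84 after DC priming and 3.21, 3.28 and 1.48 after B cell priming. DC-primed sample 1 was above and the other 2 DC-primed samples below every B cell-primed sample. Its difference was -1.30 ± 1.20, with an interval of -4.03 to 1.42 (adjusted p = 0.961). By round it was 0.75, -2.32 and -2.32. It was -2.60 without DC-primed sample 1 and -0.20 without DC-primed sample 3.

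miR-24, the sum of both loci, had levels of 6.14, 3.05 and 2.74 after DC priming and 3.71, 4.04 and 3.31 after B cell priming. DC-primed sample 1 stood above the other 5 samples, and the other 2 DC-primed samples were below all 3 B cell-primed samples. The difference was 0.29 ± 0.96, with an interval of -1.91 to 2.48 (adjusted p = 0.986). By round it was 2.43, -0.99 and -0.57. It was -0.80 without DC-primed sample 1 and 0.91 without DC-primed sample 3.

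**Figure D3:**
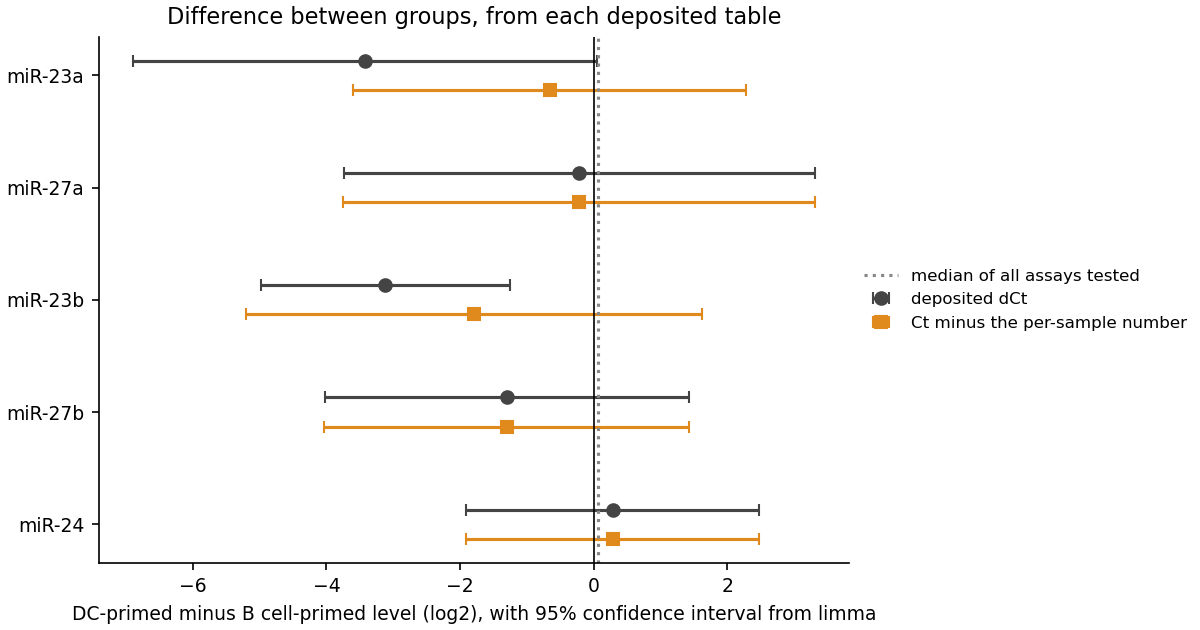
DC-primed minus B cell-primed difference in level (log2) of the 5 guide strands with limma's 95% confidence interval, from the deposited dCt (circles) and from Ct minus the per-sample number (squares); the dotted line is the median of the 274 assays tested, 0.07. miR-23b from dCt is the only value whose interval leaves out 0, before adjustment over the assays.

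The sign of several of these differences depends on the scaling. Without normalization the median of all assays tested was -1.26, and with RNY3 and snoRD47 (small noncoding RNAs) as the reference it was 1.30, against 0.07 on the authors' scale. All 3 scalings take the same number from every assay of a sample, or none. Differences relative to that median are therefore equal under all 3 by arithmetic, which is no test of them. Relative to it, miR-27a was at -0.29, miR-27b at -1.37 and miR-24 at 0.22. On this footing miR-23a from Ct was at -0.73 and miR-23b from Ct at -1.86, against -3.50 and -3.19 from dCt.

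Gaps between the Ct values of 2 members in the same sample need no normalization. All 8 gaps between partners and paralogs were compared from the deposited Ct. The Ct of miR-23a minus that of miR-23b was -2.48, -2.56 and -3.67 cycles after DC priming and -1.83, -1.94 and -1.55 after B cell priming. The groups did not overlap, with means of -2.90 ± 0.67 and -1.77 ± 0.20 (SD, n = 3 each) and a difference of -1.13 cycles. The 2-sided exact permutation p was 0.1, the smallest that 3 samples against 3 allow, and 0.4 adjusted over the 8 gaps. By round the differences were -0.65, -0.62 and -2.12. A more negative gap means less miR-23b signal relative to miR-23a. From dCt the same difference was 0.30 (exact p = 0.7), and the groups overlapped.

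The Ct of miR-27b minus that of miR-24 was 2.18, 2.09 and 3.58 against 0.50, 0.76 and 1.83. These groups did not overlap either, with a difference of 1.59 cycles (exact p = 0.1, adjusted 0.4). By round it was 1.68, 1.33 and 1.75 cycles; an exact sign-flip test over the 3 rounds gave p = 0.25 for this gap and for miR-23a minus miR-23b, the smallest that 3 rounds allow. The chromosome 8 counterpart, miR-27a minus miR-24, differed by 0.50 cycles and overlapped (exact p = 0.7). miR-27a minus miR-27b was -1.82, -0.44 and 0.01 against 0.69, -0.25 and 0.57, a difference of -1.09 (exact p = 0.2). The remaining differences were 2.07 for miR-23b minus miR-24, 0.94 for miR-23a minus miR-24, 0.49 for miR-23b minus miR-27b and 0.44 for miR-23a minus miR-27a, with exact p from 0.3 to 0.7. These 4 involve miR-23a or miR-23b, and from dCt they were 3.41, 3.71, 1.82 and 3.21 in the same order. From dCt the groups did not overlap for miR-23b minus miR-24 (exact p = 0.1, adjusted 0.32), at 6.10, 1.95 and 2.28 against -0.16, -0.80 and 1.07.

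**Figure D4:**
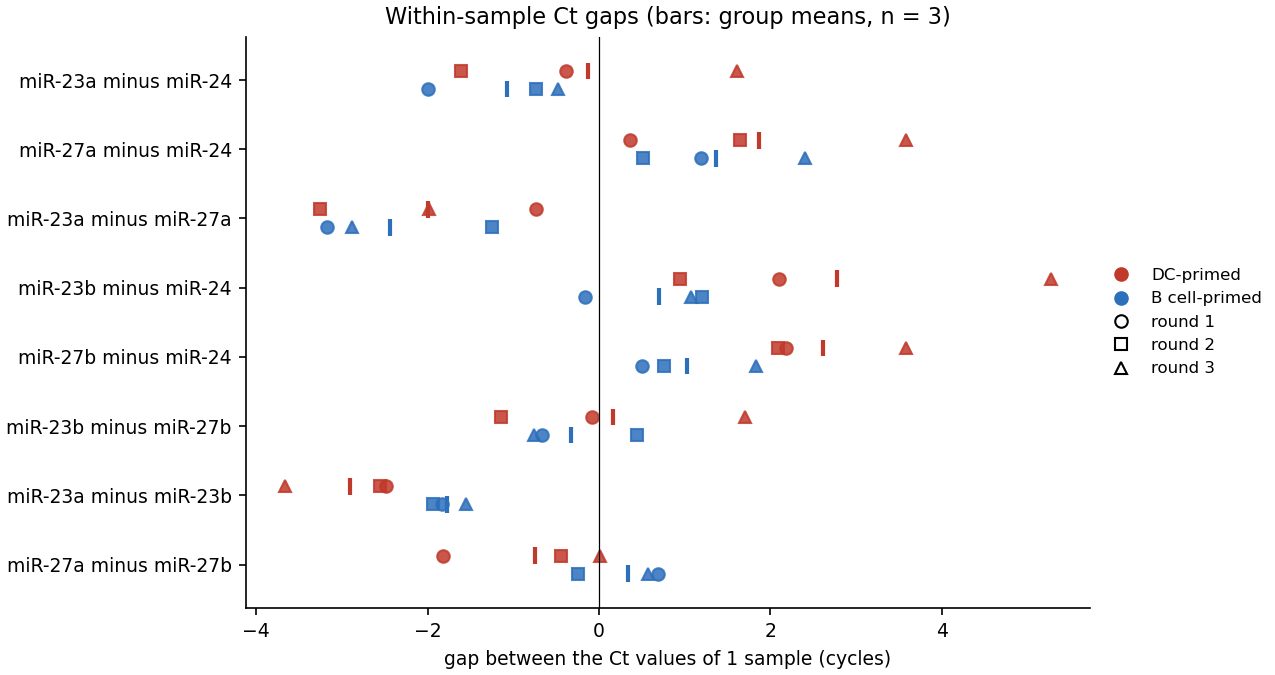
Gaps between the Ct values of 2 members within each sample (cycles), for the 8 pairs of cluster partners and paralogs, with bars for group means (n = 3 each). The groups are apart for miR-23a minus miR-23b and for miR-27b minus miR-24, and overlap in the other 6.

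The miR-24 assay does not lie beside the other members in the deposited Ct table. The control wells recur every 94 rows, in 4 stretches; miR-23a, miR-27a, miR-23b and miR-27b lie in the second and miR-24 in the fourth. In the fourth stretch the RNY3 and snoRD47 wells averaged 27.1, 34.1 and 32.3 cycles after DC priming and 26.0, 28.6 and 27.2 after B cell priming. In the second they averaged 21.6, 25.7 and 24.0 against 20.2, 22.1 and 22.4. The DC-primed wells were thus 3.92 cycles later than the B cell-primed wells in the fourth stretch and 2.19 in the second. The median miRNA assay was later by 1.73 cycles in the fourth stretch and 1.28 in the second, so the miRNA assays of the 2 stretches differed less than their wells did. Relative to the wells of its own stretch, miR-24 differed by 2.88 ± 1.53 (limma adjusted p = 0.546) and miR-27a by 0.65, with a median of 1.07 over all assays. The part of the stretch in the gaps that involve miR-24 was not tested.

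The star strands of the same hairpins were on the panel as 6 assays, 4 mouse-named and 2 human-named, and 4 were tested, all with 0 calls. miR-24-2*, from the chromosome 8 hairpin, was at 1.11, -1.50 and -7.30 after DC priming and -1.18, -0.39 and -3.28 after B cell priming. It was not tested because its Ct was 37.76 in DC-primed sample 3. It had the same order of DC-primed samples as miR-27a, with a Pearson r of 0.92 over the 6 samples. Its r was also 0.92 with miR-27b of chromosome 13, and from Ct 0.97 with miR-23a and 0.94 with miR-23b, so the likeness was not particular to its own cluster. miR-24-1*, from the chromosome 13 hairpin, was at 1.04, 2.84 and 3.30 against 0.40, 1.39 and 0.00. DC-primed sample 3, the lowest of the DC-primed samples for 4 of the 5 guide strands by dCt (miR-23b was lowest in DC-primed sample 1), was the highest here. Its difference was 1.79 ± 0.81 (limma adjusted p = 0.560), higher in DC-primed cells in all 3 rounds, as were 35 of 274 assays (12.8%). Its r was -0.68 with miR-27b from the same cluster and -0.40 with miR-24.

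miR-27b* ran from -2.73 to -0.53 after DC priming and from -2.67 to -1.98 after B cell priming, a difference of 0.33 ± 0.79. miR-27a* was later, at Ct 28.61, 34.17 and 36.06 in the DC-primed samples, and was not tested. The human-named miR-23b* was 2.88, 3.18 and 3.13 after DC priming and 1.96, 1.10 and 2.72 after B cell priming, without overlap, which held for 15 of 274 assays (5.47%) toward DC-primed cells. Its difference was 1.13 ± 0.68 (limma adjusted p = 0.720). By name it is the star partner of miR-23b, whose own difference was negative from both tables. The assay does not lie in the same stretch of the Ct table as miR-23b. In DC-primed sample 3 its Ct was 27.33, earlier than the 33 listed for miR-23b. Whether this human-named assay reads the mouse strand was not tested. The human-named miR-23a* differed by 0.13 ± 0.68.

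**Figure D5:**
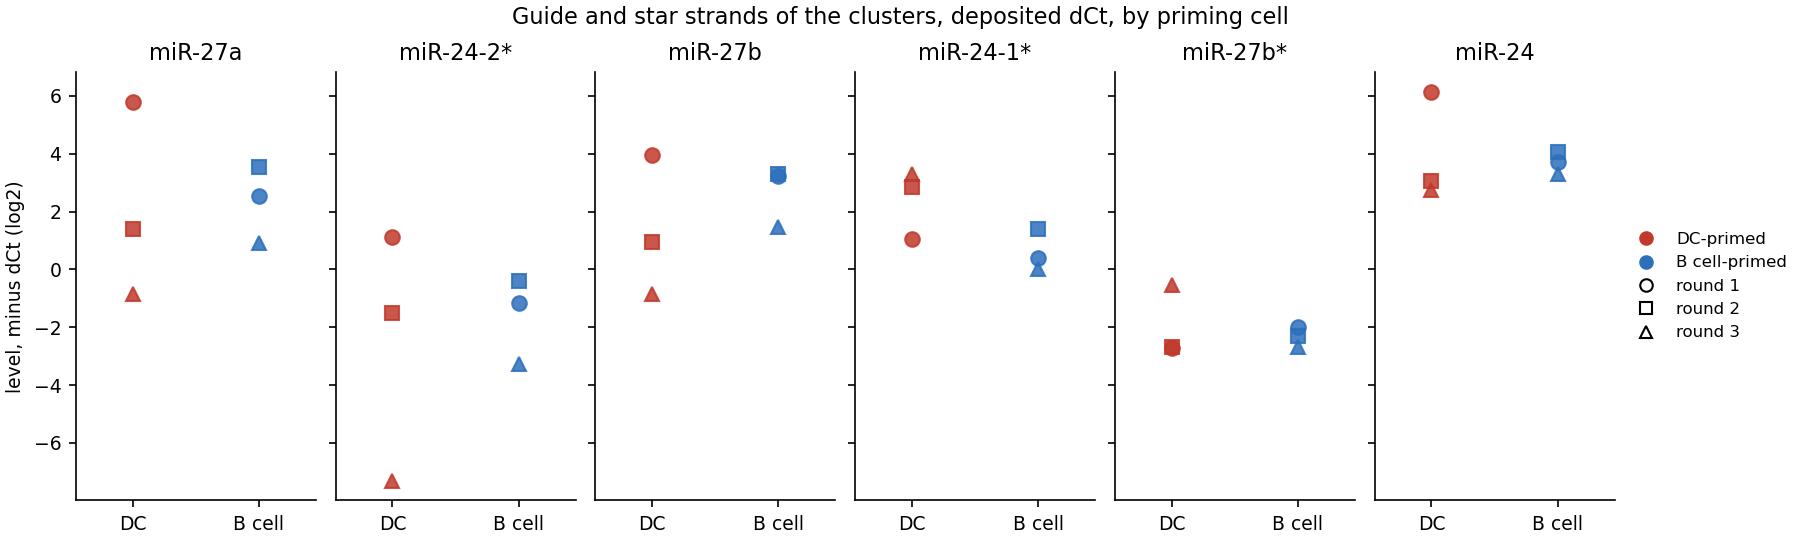
Levels (minus dCt, log2, deposited table) of guide and star strands in DC-primed and B cell-primed samples, with the round as the symbol. miR-24-2* spreads over the DC-primed samples in the order of miR-27a, while miR-24-1* has DC-primed sample 3 highest.

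Correlations between assays over the 6 samples are given as descriptions, since the assays share the same RNA samples and scaling. From Ct, miR-23a followed miR-23b at an r of 0.97, miR-27b at 0.92, miR-27a at 0.89 and miR-24 at 0.75. From dCt these were 0.87, 0.62, 0.41 and 0.08. miR-27a followed miR-24 at 0.94 and miR-27b at 0.93. The 3 tested assays most like each member, members left out, were miR-26b (0.99), miR-30e* (0.97) and miR-16 (0.96) for miR-23a from Ct. They were miR-191 (0.97), miR-16 (0.97) and miR-15b (0.96) for miR-23b from Ct. From dCt they were miR-298, miR-25 and miR-374 for miR-23a (0.85, 0.83 and 0.81) and miR-182, miR-298 and miR-296-3p for miR-23b (0.96, 0.93 and 0.93). The named neighbours of miR-23a and miR-23b therefore depend on the table. For miR-27a they were miR-15a (0.98), miR-382 (0.97) and miR-29c (0.97), and for miR-27b miR-382 (0.99), miR-29c (0.96) and miR-128a/128b (0.95). For miR-24 they were miR-690, miR-148b and miR-365, each at 0.95.

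Markers of T cells and of the priming cells moved across the DC-primed samples as well. miR-155, raised in activated T cells, was at 8.05, 8.42 and 2.58 after DC priming and 5.56, 6.54 and 5.83 after B cell priming, and miR-16, abundant in blood cells, was at 6.63, 4.40 and 0.02 against 4.75, 4.80 and 4.31. Of the 6 T cell and lymphocyte markers, 5 had a Ct in every sample. On average 4 of these were higher in DC-primed cells and 1, miR-16, was lower, with 0 called. The 5 summed to 18.3 to 421 after DC priming and 86.2 to 136 after B cell priming (linear units, 2 to the power of the level). miR-155 had the highest level of the 5 in every sample except DC-primed sample 3, so it weighed most in those sums. All 7 myeloid and dendritic cell markers were higher on average in DC-primed cells, 0 of the 5 tested were called, and they summed to 43.1 to 178 against 16.7 to 18.0. let-7e alone made up 40.1 of the 43.1 in DC-primed sample 3 and 14.2 to 15.5 in the B cell-primed samples. Without it the other 6 summed to 168, 25.3 and 2.99 in DC-primed samples 1, 2 and 3 against 2.50, 3.45 and 1.77, so the groups overlapped. miR-223, a myeloid miRNA, was at 5.36, 1.23 and -6.53 in the DC-primed samples, the order seen for miR-27a. In the B cell-primed samples it was at -5.79, -5.32 and -5.04. It was not tested because its Ct was 36.99 in DC-primed sample 3. The list did not move as one: let-7e ran the other way, at 3.38, 4.89 and 5.33, and miR-147 was at 3.89, -0.77 and -0.11. Of the 3 erythroid markers 2 were higher, and of the 5 endothelial and stromal markers on the panel 2 were higher and 3 lower. Both miR-34a and miR-148a, found in B cells but not specific to them, were higher. The part of these other cells or of sample quality in the members' values was not tested.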

How the data were processed

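The 6 samples, profiled by SYBR Green qPCR, were grouped and numbered by their titles. Per the labels' protocols, RNA was poly(A)-tailed, copied with tagged oligo-dT primers and amplified with a miRNA-specific forward primer. The deposited tables hold raw Ct (other unit, cycles) for 350 miRNA assays, the authors' dCt (log2 scale, sign turned) for 345, and, per the file headers, the authors' p-value from a paired test and the authors' fold change, a ratio. The names of the Ct and dCt tables are the reverse of their title lines; the title lines and the values were followed. Per the file headers dCt is relative to the geometric mean of a sample's Ct values; the exact number was recovered here as the median of Ct minus dCt, and the assays behind it were not recovered. Before dCt was taken, 10 missing Ct values were filled, none in a member. The rule for calling Ct is not given in the sources used here. Depth has no counterpart here: the number of samples limits the precision.

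Levels were tested with limma 3.58.1 under R 4.3.3 (eBayes without a trend or a block, 2-sided). Benjamini-Hochberg adjustment ran over 274 assays below Ct 35 in all samples, with a threshold of 0.05. The fit was also run on simulated data, in which an assay had the same SD in both groups, unlike the measured levels. Gaps within samples were compared by exact permutation. Figures used matplotlib 3.10.9 in Python 3.11.15. The text names the 5 members, their star strands, the 3 assays most like each and the cell markers; the members and lists were chosen with earlier results of these data known. Titles give rounds: deviations of same-round samples correlated at 0.16, 0.14 and 0.46 across assays, so rounds were taken as pairs for the block alternative, although for the round 1 DC-primed sample the highest value, 0.33, was with the round 2 B cell-primed one. Other alternatives were scalings, Ct limits, a variance trend, removal of filled values and leaving out samples or rounds. Chosen after seeing the data were the control wells of the same stretch, the block with Ct, the gaps by round, the myeloid sum without let-7e and leaving out samples from Ct.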

Additional observations from a re-analysis of the deposited data

How the results depend on the processing

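Limma called 0 assays under every alternative except leaving out DC-primed sample 3, with 2 called from dCt (miR-222 and miR-805) and 3 from Ct. The range over left-out samples and rounds was 0 to 2 from dCt, and 8 to 58 assays had an unadjusted p under 0.05 over all settings. With the round as a replicate block it called 0 (33 at an unadjusted p under 0.05), the smallest adjusted p being 0.0522, and the differences kept their values (miR-23a -3.42, miR-23b -3.12, miR-27a -0.21, miR-27b -1.30, miR-24 0.29); the block changed no call. No member was called under any setting run. miR-23b was not fitted at a Ct limit of 32, since its Ct of 33 in DC-primed sample 3 removed it.

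miR-27b kept a negative difference under all 21 alternatives, from -2.63 to -0.07. Several of these cannot change the miR-27b difference, which stayed at -1.30. They are levels from Ct, other or no Ct limits, the variance trend, the block and removal of filled values. miR-24 turned to -1.04 without normalization. Scaled to RNY3 and snoRD47, miR-23a turned to 0.57 and miR-27a to 1.01, and with the wells of the same stretch they were 0.20 and 0.65. These scalings start from Ct, so they also change the table used for miR-23a and miR-23b.

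Over left-out samples or rounds miR-23a ranged from -4.96 to -2.27 and miR-23b from -3.83 to -2.52 with dCt, without a change of sign. With Ct miR-23a reached 0.83 and miR-23b 0.0845, both without DC-primed sample 3. In the same way miR-27a ranged from -2.05 to 1.27 and miR-24 from -0.80 to 0.93. The gap miR-23a minus miR-23b turned from -1.13 to 0.30 cycles with dCt. Over left-out samples the gap miR-27a minus miR-24 ranged from -0.36 to 1.25, miR-23a minus miR-27a from -0.18 to 1.08 and miR-23b minus miR-27b from -0.28 to 1.14; the other gaps kept their direction. The cause was not tested.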
